A study of Mus musculus with 10 samples.

Results

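The unfolded protein response and the chaperones of the endoplasmic reticulum (ER) were followed here through 33 genes, picked by name for their place in that system, out of 42989 genes measured. All 33 were found once in the deposited comparison table and tied by gene identifier to the normalized counts, and all 33 passed the filter of at least 10 normalized counts in at least 5 libraries, as did 17507 genes in all. The RNA came from the distal ileum of male wild-type mice of the strain labelled DIO C57BL/6J (DIO is the usual short form of diet-induced obese), as 10 libraries of total RNA depleted of ribosomal RNA. Each library is taken as 1 mouse, which the labels do not spell out. From 10 weeks of age, 5 mice received TDCA (taurodeoxycholic acid, deoxycholic acid joined to taurine, a bile acid that gut bacteria help to form) by oral gavage at 10 mg per kg body weight, and 5 received water in the same volume, in both cases for 4 weeks. They are called TDCA 1 to TDCA 5 and water 1 to water 5. No mice without gavage and no lean mice were analysed here, and the roughly 20 mg of frozen tissue taken per mouse was not separated into epithelium and muscle. A normalized count is the authors' read count of a gene divided by a size factor per library.

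Libraries held 27349003 to 44342245 reads on genes, of which 76819 to 132706 fell on the 33 members. RNAs of the mitochondrial ribosome took 30.2 to 48.1% of the reads on genes, least in water 3 and most in water 1. Markers of the ileum were present in every mouse, with *Fabp6*, which carries bile acids inside ileal enterocytes, at 28629 to 105767 normalized counts. Markers of the proximal small intestine, 5 genes, summed to 4292 to 55620 normalized counts in water and 2021 to 36561 in TDCA mice. That sum was highest in water 1 and lowest in TDCA 5. Whether all samples came from the same position along the gut was not tested. The carbonic anhydrase gene *Car1*, a marker of the colon, stood at 4406 in water 3, 13827 in TDCA 3 and 11707 in TDCA 4, and at 0 to 38.1 in the other 7 libraries. It is 1 of 6 colon markers, of which 4 passed the filter. The others that passed, *Car4*, *Slc26a3* and *Mettl7b*, had log2 fold changes (TDCA minus water) of −0.031, −0.21 and 0.0061, against 4.57 (SE 3.13) for *Car1*. Whether the libraries with *Car1* held colon tissue was not tested. Water 1 and TDCA 5 lay at opposite ends of the first principal component. Smooth muscle markers, 14 genes, summed to 84586 to 251477 normalized counts in water and 190648 to 332395 in TDCA mice, lowest in water 1 and highest in TDCA 5. In whole tissue, fewer cells of a type and less RNA per cell cannot be told apart, and this holds for every value that follows.

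The ER folds proteins bound for the membrane and for secretion. When unfolded protein builds up there, the sensors IRE1 (*Ern1*, *Ern2*), PERK (*Eif2ak3*) and ATF6 are released from the chaperone BiP and signal to the nucleus: IRE1 splices *Xbp1* mRNA, PERK slows translation through eIF2α and so favours the factor ATF4, and ATF6 is cut in the Golgi to free a transcription factor. Their targets are chaperones, folding enzymes and the machinery that sends misfolded protein to the proteasome. In the gut this system is known chiefly from cells that secrete much protein, the Paneth and goblet cells of the epithelium and plasma cells below it. Counts per gene show neither the splicing of *Xbp1* nor the phosphorylation of PERK, so the state of the sensors was not measured.

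Promoters were read for the 28 members that have an entry in the RefSeq promoter table of build GRCm38.p6, which covers 250 bases before to 50 bases after each gene's start. They are shown because ATF6 and XBP1 are known to act through the ER stress response element (ERSE), spelled CCAAT, then 9 bases of any kind, then CCACG. On either strand, ERSE was present in 9 of 28 member promoters (32.1%) and in 39 of 32851 promoters in the table (0.119%). The sites follow, read in the direction of the motif, with its fixed letters in capitals and the spacer in lower case. *Hsp90b1* held 2 of them.
Calr (chr8:84847075-84847093, plus strand): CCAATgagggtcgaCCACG
Canx (chr11:50325800-50325818, minus strand): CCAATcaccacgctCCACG
Creld2 (chr15:88819520-88819538, minus strand): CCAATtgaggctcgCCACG
Derl3 (chr10:75893242-75893260, minus strand): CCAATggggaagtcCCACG
Dnajc3 (chr14:118937827-118937845, plus strand): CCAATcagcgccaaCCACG
Hsp90b1 (chr10:86705533-86705551, plus strand): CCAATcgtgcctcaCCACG
Hsp90b1 (chr10:86705638-86705656, minus strand): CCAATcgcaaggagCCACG
Hspa5 (chr2:34772025-34772043, plus strand): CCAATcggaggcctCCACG
Pdia6 (chr12:17266491-17266509, plus strand): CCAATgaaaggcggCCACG
Syvn1 (chr19:6046532-6046550, plus strand): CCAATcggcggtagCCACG

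A related element, ERSE-II (ATTGG, 1 base of any kind, CCACG), was present in 2 member promoters (7.14%) against 0.0365% of all promoters, those of *Dnajb11* and *Herpud1*. It shares its last letters, CCACG, with ERSE, and no site was counted under both. The core bound by ATF4 with C/EBP partners, here TGATGNAA with N any base, was present in 4 member promoters (14.3%) against 3.97% of all, and 3 of these genes belong to the PERK-ATF4 arm. The shorter core TGACGTG, recognised by ATF6 and XBP1, was found in 1 member promoter, that of *Hspa5* (3.57%, against 2.01% of all). Matches of letters describe these windows and are not shown to be bound.
Dnajb11 (chr16:22857852-22857862, plus strand): ATTGGcCCACG
Herpud1 (chr8:94386377-94386387, plus strand): ATTGGgCCACG
Asns (chr6:7693225-7693232, minus strand): TGATGaAA
Chac1 (chr2:119351049-119351056, minus strand): TGATGcAA
Herpud1 (chr8:94386317-94386324, minus strand): TGATGcAA
Trib3 (chr2:152344039-152344046, plus strand): TGATGtAA

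Whole promoters are shown for *Hspa5*, *Hsp90b1* and *Herpud1*. *Hspa5* and *Hsp90b1* had the most abundant transcripts of the 10 members grouped here as ER chaperones, and *Herpud1* held an element of each arm. All motif letters of the 4 kinds are in capitals, on whichever strand they lie.
Hspa5 (chr2:34771840-34772139, plus strand): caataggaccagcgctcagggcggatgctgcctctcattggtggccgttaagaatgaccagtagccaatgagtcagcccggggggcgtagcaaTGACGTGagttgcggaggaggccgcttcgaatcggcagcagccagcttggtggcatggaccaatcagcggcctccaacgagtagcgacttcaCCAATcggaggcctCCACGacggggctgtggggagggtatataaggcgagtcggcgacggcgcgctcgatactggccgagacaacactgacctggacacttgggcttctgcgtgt
Hsp90b1 (chr10:86705395-86705694, minus strand): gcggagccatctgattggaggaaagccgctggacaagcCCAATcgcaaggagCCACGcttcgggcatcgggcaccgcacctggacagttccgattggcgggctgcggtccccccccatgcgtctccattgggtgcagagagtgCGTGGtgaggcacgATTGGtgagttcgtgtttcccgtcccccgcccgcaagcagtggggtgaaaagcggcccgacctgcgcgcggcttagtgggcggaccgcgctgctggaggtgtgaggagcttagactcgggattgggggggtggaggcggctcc
Herpud1 (chr8:94386179-94386478, plus strand): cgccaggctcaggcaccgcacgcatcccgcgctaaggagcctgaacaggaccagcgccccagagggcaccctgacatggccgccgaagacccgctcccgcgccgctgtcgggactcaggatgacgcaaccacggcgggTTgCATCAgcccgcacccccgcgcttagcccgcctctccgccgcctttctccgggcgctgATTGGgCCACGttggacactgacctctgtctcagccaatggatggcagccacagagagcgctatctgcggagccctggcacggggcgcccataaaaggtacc

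Mice given TDCA were set against mice given water, to see whether transcripts of ER folding and stress differed after 4 weeks. None of the 33 members differed between the groups past the threshold, an adjusted p under 0.05 in limma on log2(normalized count + 1), where 0% of the 17507 genes tested passed. Their smallest adjusted p was 0.448, for *Sdf2l1* and *Sec61b*. At an unadjusted p under 0.05 stood 2 of 33 members, the same genes, against 11% of all genes. By the same unadjusted rule edgeR, DESeq2 and limma-voom each counted 2 members, and 0 passed their adjusted tests. The ranges of TDCA and water mice overlapped for all 33 members, where 1.4% of all genes had ranges without overlap (0.823% with TDCA below and 0.577% with TDCA above). Of 13800 genes with an adjusted p in the authors' deposited table, 25 (0.181%) are under 0.05, 0 of them among the 31 members that have one. There the smallest adjusted p among members is 0.331.

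As a group the members lay slightly below 0. The log2 fold change (TDCA minus water) was below 0 for 28 members and above 0 for 5, with a median of −0.15, while 52.1% of all genes tested were below 0 with a median of −0.013. The members share libraries and vary together, so these 33 signs are not independent of each other. Without both water 1 and TDCA 5, 17 of 33 members were below 0 and their median was −0.0069. With the score of the smooth muscle markers as a covariate, 7 were below 0 and the median was 0.057, with 50.7% of all genes tested below 0. All 14 of these markers had log2 fold changes above 0. The covariate thus goes with the treatment, and their parts cannot be told apart in this fit, here or for the single members below. Leaving out single mice moved the median most for water 1 (−0.077), water 5 (−0.070) and TDCA 5 (−0.065). Without the 3 libraries with *Car1*, a choice made after the data were seen, 26 members were below 0 with a median of −0.20.

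**Figure D1:**
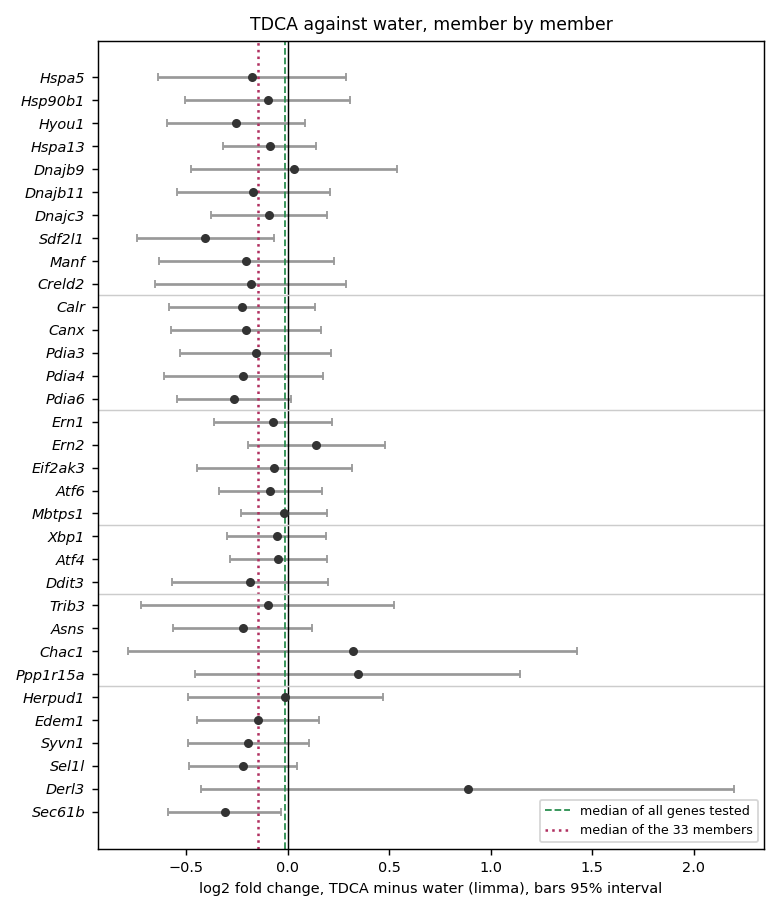
Log2 fold change of TDCA against water for each of the 33 members, grouped by role from chaperones (top) to degradation and translocation (bottom), with points for the limma estimate and bars for its 95% interval (n = 5 mice per group). All intervals but those of *Sdf2l1* and *Sec61b* include 0, and the members' median (−0.15, dotted) lies below that of all genes tested (−0.013, dashed).

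Of the chaperones of the ER lumen, 10 genes, 9 had log2 fold changes below 0 and none passed the test. With the smooth muscle covariate 8 of these 9 were above 0, *Hspa5* at 0.14 and *Hsp90b1* at 0.19 (limma adjusted p = 0.997 for both). *Hspa5* encodes BiP, the Hsp70 of the ER that also holds the sensors inactive. *Hspa5* stood at 15528, 8859.5, 8213, 9394 and 14533 normalized counts in water 1 to 5 and at 8209.8, 9692, 13015, 10627 and 7596 in TDCA 1 to 5. The highest were water 1, water 5 and TDCA 3 and the lowest was TDCA 5, with overlapping groups. Its mean was 11306 ± 3444 normalized counts with water and 9828 ± 2146 with TDCA (SD, n = 5 per group), with a log2 fold change of −0.18 (95% interval −0.64 to 0.29, limma adjusted p = 0.771). *Hsp90b1*, which encodes the Hsp90 paralogue GRP94, stood at 17528, 10898, 10817, 9727 and 14276 normalized counts in water 1 to 5 and at 9880.5, 10583, 15976, 11483 and 10634 in TDCA 1 to 5. The same 3 mice were highest, and the log2 fold change was −0.10 (95% interval −0.51 to 0.31, limma adjusted p = 0.863).

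*Sdf2l1*, a partner of the co-chaperone ERdj3, had the smallest p of the members. *Sdf2l1* stood at 547, 361, 433, 491 and 621 normalized counts in water 1 to 5 and at 339.6, 393, 431, 379.6 and 292 in TDCA 1 to 5. Water 2 lay within the range of the TDCA mice, water 3 just above it and the other water mice higher, and TDCA 5 was lowest. Its mean was 490.4 ± 100.2 normalized counts with water and 367 ± 53.3 with TDCA (SD, n = 5 per group), a log2 fold change of −0.40 (95% interval −0.74 to −0.068, limma adjusted p = 0.448), which did not pass. In the authors' deposited table its log2 fold change is −0.42 with an adjusted p of 0.331. With single mice left out, the limma value lay between −0.51 and −0.31, and the smooth muscle covariate gave −0.19.

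The other chaperones gave smaller differences. *Hyou1*, an exchange factor for BiP, ranged from 1787 to 2945 in water and 1536 to 2315 in TDCA mice, with a log2 fold change of −0.25 (95% interval −0.59 to 0.084, limma adjusted p = 0.550). *Manf* and *Creld2*, which encode small ER proteins induced by ER stress, had log2 fold changes of −0.20 (SE 0.20) and −0.18 (SE 0.21). *Creld2* was at 846 normalized counts in water 1 and 728 in water 5, and at 406 to 434 in the other water mice. Among the J-domain co-chaperones, the log2 fold change was −0.17 (SE 0.17) for *Dnajb11*, −0.092 (SE 0.13) for *Dnajc3* and 0.030 (SE 0.23) for *Dnajb9*, the 1 chaperone above 0. *Hspa13*, a small Hsp70 relative, was the steadiest of the 10, at 1136 to 1471 in water and 1072 to 1313 in TDCA mice (log2 fold change −0.087, SE 0.11).

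**Figure D2:**
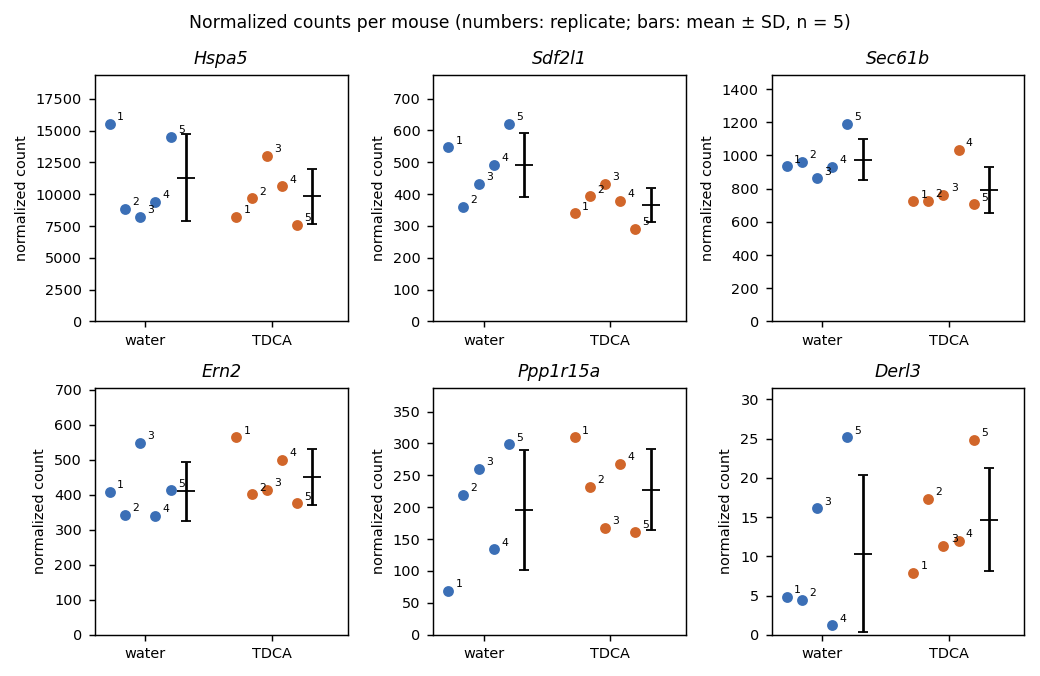
Normalized counts of 6 members in each mouse, with the replicate number beside each point and the mean ± SD (n = 5) as a bar to the right of each group. The groups overlap in every panel; for *Hspa5* water 1 (15528) and water 5 (14533) stand above the other water mice (8213 to 9394).

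The calnexin cycle retains newly made glycoproteins until they are folded, and its 5 members all had log2 fold changes below 0, from −0.26 to −0.16, none past the test. With the smooth muscle covariate 4 of the 5 were above 0 (*Calr* 0.0065, *Canx* 0.062, *Pdia3* 0.057 and *Pdia4* 0.043). *Calr*, the soluble lectin calreticulin, stood at 10788, 8432, 8339, 7584 and 8842 normalized counts in water 1 to 5 and at 7173, 7963, 10273, 7365 and 5417 in TDCA 1 to 5. TDCA 5 was the lowest of the 10 mice and water 1 and TDCA 3 the highest. Its mean was 8797 ± 1202 normalized counts with water and 7638 ± 1752 with TDCA (SD, n = 5 per group), with a log2 fold change of −0.22 (SE 0.17). *Canx*, the membrane-bound lectin calnexin, ranged from 12925 to 20450.3 in water and 11108 to 18731 in TDCA mice (−0.20, SE 0.17). *Pdia3*, the disulfide isomerase that works with both lectins, ranged from 8542 to 12981 in water and 7400.3 to 12323 in TDCA mice (−0.16, SE 0.17). The isomerases *Pdia4* and *Pdia6* had log2 fold changes of −0.22 (SE 0.18) and −0.26 (SE 0.13), the latter with an unadjusted p of 0.0623.

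Most of these 15 folding genes were high in the same 3 mice. For 12 of the 15, the 3 highest mice were water 1, water 5 and TDCA 3, a set that was chosen after the values were seen and that holds the 3 highest for 2.42% of all genes tested. The exceptions were *Sdf2l1*, *Hspa13* and *Dnajb9*, the last highest in water 5, TDCA 4 and TDCA 1 and lowest in water 4. Water 1 was highest of the 10 for 11 of the 15 (19.1% of all genes), and TDCA 5 was lowest for 10 (19.2% of all genes). The median centred log2 level of the 10 chaperones was 0.43 in water 1, 0.42 in water 5 and 0.26 in TDCA 3, −0.45 in TDCA 5, and −0.16 to −0.046 in the other 6 mice. A treated mouse stood among the highest, and 3 untreated mice among the middle 6. The smooth muscle markers summed to 84586 in water 1, 135828 in water 5, 190648 in TDCA 3 and 332395 in TDCA 5, and lay between 113440.0 and 257441 in the other 6 mice. The part of muscle content in the levels of single mice was not tested.

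**Figure D3:**
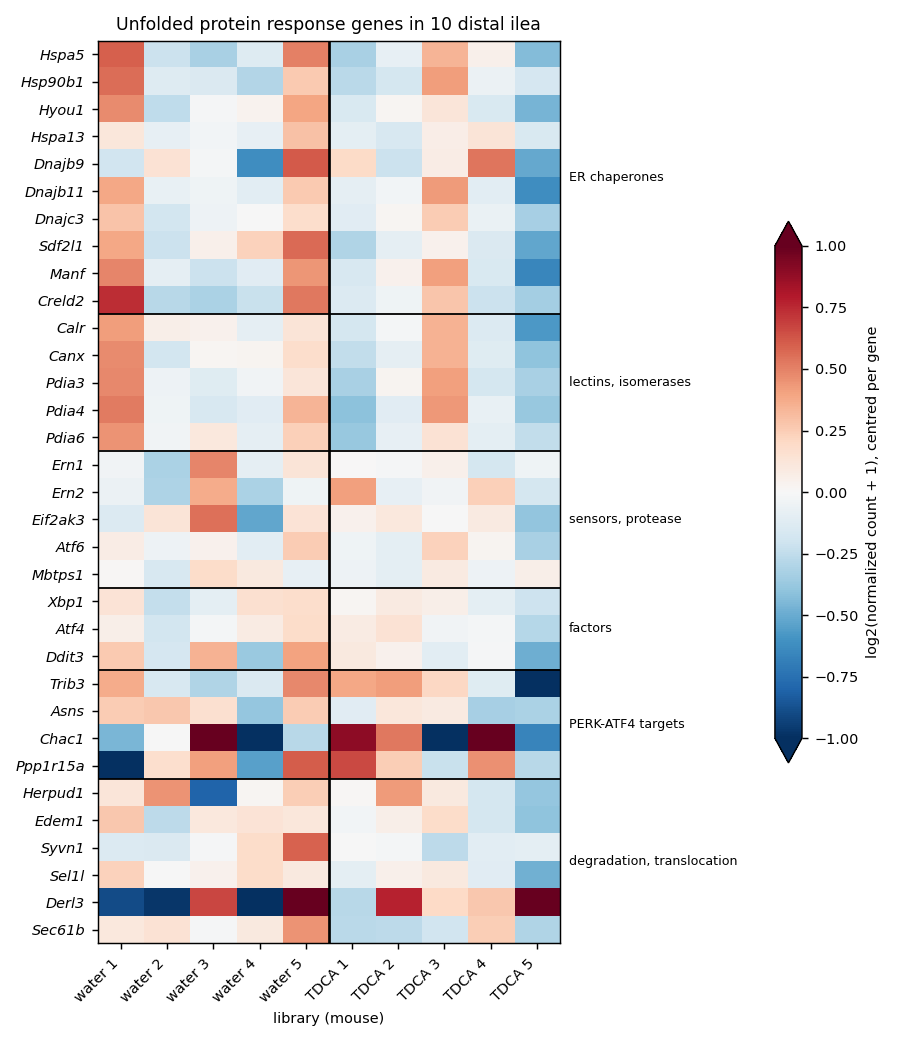
Levels of the 33 members (rows, grouped by role) in the 10 mice (columns), as log2(normalized count + 1) minus the gene's mean, with the colour scale ending at −1 and 1. Most chaperone, lectin and isomerase rows are red in water 1, water 5 and TDCA 3 and blue in TDCA 5. Of the PERK-ATF4 rows, *Trib3* is also lowest in TDCA 5, while *Ppp1r15a* is lowest in water 1 and *Asns* and *Chac1* in water 4.

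None of the 5 genes of the sensors and their protease passed the test, and the 4 that were below 0 were above it with the smooth muscle covariate. *Ern1*, which encodes the ubiquitous IRE1α, ranged from 669 to 1168 in water and 734 to 864 in TDCA mice, with water 3 the highest (log2 fold change −0.071, SE 0.13). *Ern2*, which encodes the IRE1β of gut epithelium and goblet cells, stood at 408, 343, 548, 341 and 412 normalized counts in water 1 to 5 and at 564, 401, 414, 499.6 and 375 in TDCA 1 to 5. TDCA 1, water 3 and TDCA 4 were highest and the groups overlapped (log2 fold change 0.14, 95% interval −0.20 to 0.48, limma adjusted p = 0.748). The ratio of *Ern2* to *Ern1* averaged 0.558 ± 0.111 with TDCA and 0.475 ± 0.0323 with water (SD, n = 5 per group), a difference within the spread of the mice (exact permutation test, two-sided, p = 0.206, 0.619 adjusted over 3 ratios). TDCA 1 (0.678) and TDCA 4 (0.680) were above the other 8 mice, which lay between 0.436 and 0.513. Goblet markers, 9 genes, summed to 251227 to 518275 normalized counts in water and 219147 to 400280.0 in TDCA mice, with 5 of 9 below 0.

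*Eif2ak3*, the gene of the kinase PERK, had a log2 fold change of −0.065 (SE 0.18), and TDCA 5 (955 normalized counts) and water 4 (877) were its lowest mice. *Atf6* had −0.085 (SE 0.12), and *Mbtps1*, the Golgi protease that cuts ATF6, −0.017 (SE 0.10). *Mbtps1* varied least of all members, 1.26-fold between the highest and the lowest mouse, and its 95% interval of −0.23 to 0.20 was the narrowest.

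The 3 transcription factors had log2 fold changes from −0.19 to −0.045, none past the test, and 3 of 3 were above 0 with the smooth muscle covariate. *Xbp1*, the target of IRE1, stood at 2484, 1917, 2109.6, 2529 and 2550.0 normalized counts in water 1 to 5 and at 2285, 2409, 2355, 2112 and 1961 in TDCA 1 to 5. Neither group was set apart (log2 fold change −0.054, 95% interval −0.30 to 0.19, limma adjusted p = 0.876). *Atf4*, the factor downstream of PERK, ranged from 2006 to 2591 in water and 1871 to 2527 in TDCA mice (log2 fold change −0.045, 95% interval −0.28 to 0.19, limma adjusted p = 0.895). The ratio of *Atf4* to *Xbp1* was 1.02 ± 0.0587 in TDCA and 1.01 ± 0.0520 in water mice (SD, n = 5 each, exact permutation p = 0.841). *Ddit3*, which encodes the pro-apoptotic factor CHOP, averaged 228 ± 51.5 normalized counts with water and 198 ± 29.5 with TDCA (SD, n = 5 per group), with a log2 fold change of −0.19 (SE 0.18). Its ratio to *Hspa5* was 0.0207 ± 0.00450 against 0.0212 ± 0.00657 (exact permutation p = 0.984, n = 5 each). *Ddit3* shares exon positions with genes on the opposite strand, among them a tRNA synthetase gene, as do *Manf* and *Syvn1*, and since no source used here says whether the authors counted by strand, the counts of these 3 are uncertain. In all, 9 members have opposite-strand overlaps, and these 3 have the partners with the highest mean counts. *Manf* also shares exon positions with *Rbm15b* on its own strand (mean 633 normalized counts), which a strand setting would not resolve.

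The targets of PERK and ATF4 lay on either side of 0, and 3 of the 4 were, after *Derl3*, the most variable members. *Ppp1r15a*, whose product GADD34 restores translation, stood at 68.5, 219.8, 259.9, 134 and 299 normalized counts in water 1 to 5 and at 309.8, 232, 168, 268 and 161 in TDCA 1 to 5. Water 1 was lowest by far and TDCA 1 highest, and the log2 fold change was 0.34 (95% interval −0.46 to 1.15, limma adjusted p = 0.739). Without water 1 it was 0.012. *Chac1*, an enzyme that breaks down glutathione, stood at 14.4, 20.2, 45.1, 8.37 and 16.5 normalized counts in water 1 to 5 and at 38.5, 29.6, 8.73, 46.3 and 12.4 in TDCA 1 to 5. These low counts spanned 5.53-fold with no order by group (log2 fold change 0.32, 95% interval −0.79 to 1.42, limma adjusted p = 0.832).

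*Trib3*, a pseudokinase induced by ATF4 and CHOP, stood at 238, 164, 148, 166 and 256 normalized counts in water 1 to 5 and at 239.8, 245, 212, 169 and 82.5 in TDCA 1 to 5. TDCA 5 alone was below 148, the lowest water mouse, and the log2 fold change of −0.10 (SE 0.29) was 0.17 without it. *Asns*, asparagine synthetase, averaged 231 ± 39.6 normalized counts with water and 197 ± 29.2 with TDCA (SD, n = 5 per group), with a log2 fold change of −0.22 (SE 0.16). The median centred log2 level of the 4 targets was −0.10 in water 1 and −0.065 in TDCA 3, where chaperones were high, and 0.52 in TDCA 1, where chaperones stood at −0.15. The levels of targets and chaperones lay on the same side in water 5 (0.37 and 0.42), water 4 (−0.46 and −0.11) and TDCA 5 (−0.49 and −0.45). In water 2, water 3, TDCA 2 and TDCA 4 the targets were above 0 (0.083, 0.29, 0.33 and 0.17). Chaperones were below 0 in those mice (−0.16, −0.046, −0.060 and −0.084). Whether the targets and the chaperones vary separately was not tested.

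**Figure D4:**
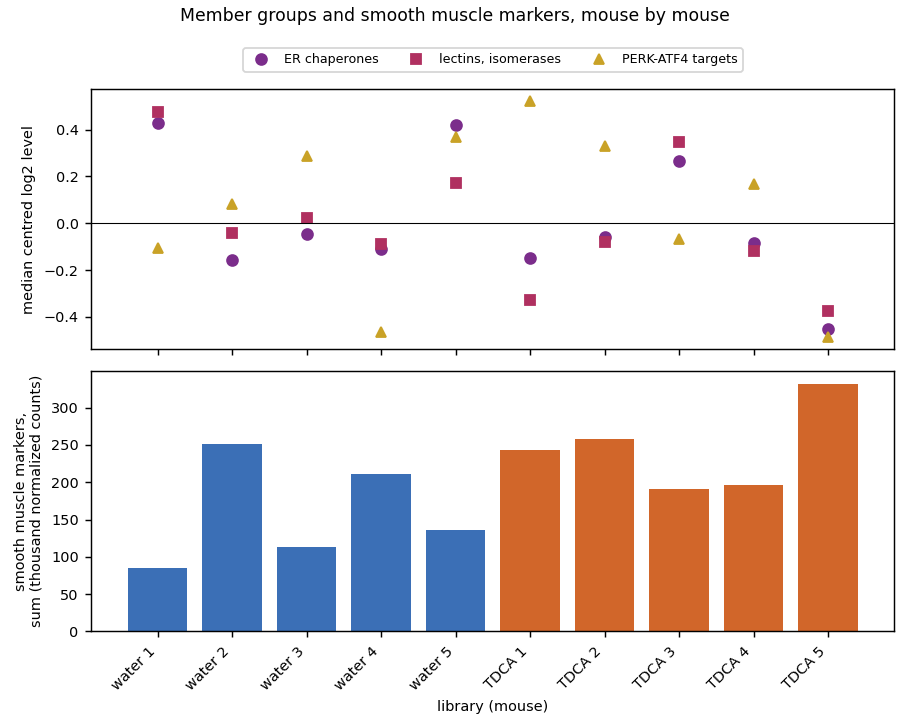
Top, median centred log2 level of the 10 ER chaperones, the 5 lectins and isomerases, and the 4 PERK-ATF4 targets in each mouse; bottom, the summed normalized counts of 14 smooth muscle markers in the same mice (blue, water; orange, TDCA). The PERK-ATF4 targets lie away from both other groups in water 1 (−0.10) and TDCA 1 (0.52), all 3 groups are low in TDCA 5, and the muscle sum runs from 84586 in water 1 to 332395 in TDCA 5.

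ER-associated degradation and translocation included the other member at an unadjusted p under 0.05. *Sec61b*, a subunit of the channel that passes proteins into the ER, stood at 935, 961, 863, 929.8 and 1189.9 normalized counts in water 1 to 5 and at 723, 726, 762, 1034 and 705 in TDCA 1 to 5. TDCA 4 stood among the water mice and the other 4 TDCA mice stood below all of them. Its mean was 976 ± 125 normalized counts with water and 790.1 ± 138 with TDCA (SD, n = 5 per group), a log2 fold change of −0.31 (95% interval −0.59 to −0.034, limma adjusted p = 0.448), which did not pass. *Sel1l* and *Syvn1*, the partner subunits of the HRD1 ubiquitin ligase, had log2 fold changes of −0.22 (SE 0.12) and −0.19 (SE 0.14). *Edem1*, which marks misfolded glycoproteins for removal, had −0.15 (SE 0.14). *Herpud1*, which joins the HRD1 complex and carries both ERSE-II and the ATF4 core, ranged from 1426 to 3396 in water and 1904 to 3356 in TDCA mice and had −0.011 (SE 0.22), the value nearest to 0 of all members. Water 3 was its lowest mouse.

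*Derl3*, a derlin of secretory cells such as plasma cells, stood at 4.80, 4.48, 16.1, 1.20 and 25.2 normalized counts in water 1 to 5 and at 7.88, 17.3, 11.4, 12 and 24.8 in TDCA 1 to 5. It was the scarcest member, near the limit of 3 reads that stands for no detection (2.57 to 3.60 normalized counts), and water 4 lay under that limit. Its log2 fold change of 0.89 (95% interval −0.42 to 2.20, limma adjusted p = 0.591) rests on few reads. Plasma cell markers, 9 genes with none at 0 in all mice, summed to 10523 to 23109 normalized counts in water and 11764 to 31134 in TDCA mice, and 7 of the 8 tested had log2 fold changes above 0, 0 of them at an unadjusted p under 0.05. *Jchain*, the joining chain of secreted antibodies, averaged 3922 ± 927 normalized counts with water and 5987 ± 2541 with TDCA (SD, n = 5 per group). The part of plasma cells in the *Derl3* values was not tested.

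The levels of the members differed far more between genes than between groups. Per kilobase of exon, *Canx*, *Hsp90b1*, *Pdia3*, *Calr* and *Hspa5* stood highest, at 2499 to 3184 normalized counts per kilobase over the 10 mice, with SDs of 536 to 679.9, so that neighbours in this order did not differ beyond their spread. *Herpud1* followed at 1099 ± 262 per kilobase (SD, n = 10), and its highest mouse (1456) lay below the lowest value of any of the 5 (1796). *Atf4* (973 ± 94.6) stood above *Xbp1* (699 ± 71.7), and *Ern2* (145 ± 26.9) above *Ern1* (103 ± 16.2, n = 10 each, per kilobase). The ratios of these pairs given above used normalized counts not scaled for length, and *Ern1* has 8.17 kb of exon where *Ern2* has 2.96 kb. The PERK-ATF4 targets *Trib3*, *Asns*, *Ppp1r15a* and *Chac1* took ranks 29 to 32 of 33, from 90.4 down to 14.7 per kilobase, before *Derl3* at 6.28. Apart from the RNAs of the mitochondrial ribosome, the 33 members took 0.417 to 0.540% of the reads of a library, lowest in TDCA 1 and highest in water 5. Within a group, their median SD on the log2 scale was 0.27, against 0.30 for all genes tested and 0.22 for the 3938 genes whose normalized counts averaged 1000 or more.

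Other genes of the same machinery were taken from 7 lists, 131 genes of which 129 were tested. None passed the adjusted test (0 of 129), and 14 stood at an unadjusted p under 0.05, 11 below and 3 above 0, against 5.01% of all genes below and 5.95% above. Of the 129, 96 had log2 fold changes below 0, with a median of −0.11. Other degradation genes were below 0 for 23 of 24 (median −0.11), among them the ubiquitin ligase gene *Rnf5* (−0.40, SE 0.15) and the p97 cofactor *Nploc4* (−0.23, SE 0.10). N-glycan transfer and trimming genes were below 0 for 15 of 17 (median −0.20), with *Dad1* of the oligosaccharyltransferase at −0.34 (SE 0.11) and glucosidase II *Ganab* at −0.28 (SE 0.12). In the same list *Uggt2*, a folding sensor of glycoproteins that was named after its values were seen, was above 0 at 0.44 (SE 0.18), with an unadjusted p of 0.0324. The translocon and signal peptidase had 13 of 16 below 0 (median −0.18), with *Ssr4* at −0.36 (SE 0.11) and *Ssr2* at −0.35 (SE 0.14).

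Among other sensors and regulators 13 of 19 were below 0, including the haem-regulated eIF2α kinase gene *Eif2ak1* (−0.34, SE 0.14) and *Tmbim6* (−0.39, SE 0.17), an ER membrane protein that limits IRE1. Other PERK-ATF4 and amino acid response genes were below 0 for 15 of 21 (median −0.095), and 2 of the 21 stood at an unadjusted p under 0.05. *Cth*, cystathionine gamma-lyase, averaged 1391 ± 435 normalized counts with water and 775 ± 217 with TDCA (SD, n = 5 per group), with a log2 fold change of −0.83 (95% interval −1.34 to −0.32, limma adjusted p = 0.448). *Aldh18a1*, of proline synthesis, averaged 1418 ± 416 normalized counts with water and 895 ± 148 with TDCA (SD, n = 5 per group), with a log2 fold change of −0.63 (SE 0.19). Other disulfide isomerases and oxidation genes were split, 9 of 16 below 0, with *Tmx4* (0.46, SE 0.17) and *Prdx4* (0.32, SE 0.19) above it. Other chaperones and prolyl isomerases were split too, 8 of 16 below 0, with *Dnajc1* at 0.31 (SE 0.11) and *Fkbp2* at −0.28 (SE 0.10).

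Several measures were set beside these values, and their relation to the members was not tested. With all genes tested ordered by exon length and cut into 5 equal bins, the shortest bin had a median log2 fold change of −0.076 and the longest bin 0.034. From the shortest bin to the longest, the members' medians were −0.19, −0.045, −0.18, −0.092 and −0.085, with no steady order. *Sdf2l1* (1.11 kb) and *Sec61b* (1.27 kb) lie in the shortest bin, as does *Chac1* (1.64 kb), whose log2 fold change was above 0. Smooth muscle markers were above 0 for 14 of 14 (median 0.69, 10 at an unadjusted p under 0.05) and pan-epithelial markers below 0 for 8 of 8 (median −0.24). The latter summed to 147110.0 normalized counts in TDCA 5 and to 210274 to 270294 in the other 9 mice. Enterocyte markers were below 0 for 10 of 11 (median −0.51), Paneth cell markers for 9 of 9 (median −0.60) and proliferation markers for 9 of 10 (median −0.42). Markers of enteric neurons and glia were above 0 for 7 of 7 (median 0.52). No marker of these lists was at 0 in all 10 mice. With the pan-epithelial score as a covariate the members' median was −0.034, with 21 of 33 below 0. In that fit too, treatment and tissue content cannot be told apart. The part of transcript length was not tested.

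**Figure D5:**
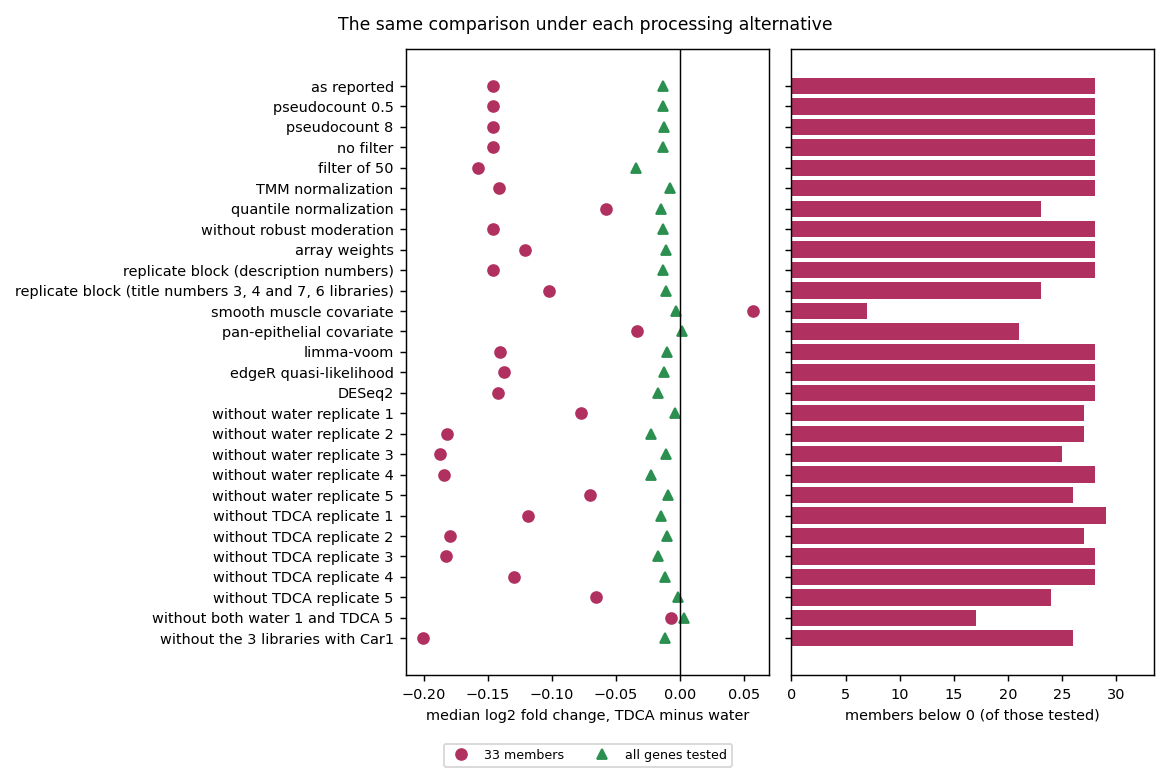
Left, median log2 fold change (TDCA minus water) of the members (circles) and of all genes tested (triangles) under each way of processing; right, the number of members below 0. The members' median runs from −0.20 without the 3 libraries with *Car1* to 0.057 with the smooth muscle covariate, and the number below 0 from 29 to 7.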

How the data were processed

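Per the labels' protocols, RNA was extracted from about 20 mg of frozen tissue per mouse and sequenced as total RNA after depletion of ribosomal RNA by the library kit. Build GRCm39, DESeq2 1.28.0 and MultiQC 1.9 are named per the submitters' processing notes. Not given in the sources used here were aligner, counter, strand setting and annotation. The deposited values are a signal, normalized read counts that the authors scaled by one factor for each library. Since 100% of values came out as whole multiples of one step per library (tolerance 1e-04 of a read), reads could be recovered. Per the file headers, the authors' comparison table holds mean signal, log2 fold change, test score, p-value and adjusted p-value. All 10 columns were tied to a labelled sample.

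Differences were tested in R 4.3.3 with limma 3.58.1, with a trended prior and robust moderation, on log2(normalized count + 1), fitted to all 17507 genes with at least 10 normalized counts in at least 5 libraries, 5 TDCA against 5 water mice, two-sided, with Benjamini-Hochberg adjustment over these genes. Fold changes on this scale understate low genes. Alternatives on whole reads were edgeR 4.0.16, DESeq2 1.42.0 and limma-voom. DESeq2 run here differed from the authors' adjusted p by more than 0.001 for 0 genes. Ratios of members were tested by exact permutation of 252 labelings, whose smallest two-sided p is 0.00794. Scripts were tested on simulated counts. Libraries are taken as 1 mouse each, which the labels do not spell out, so p-values measure the spread between these libraries.

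The members and lists were chosen with earlier results of these data known. All members were to be named, the 2 genes with the smallest p of each surrounding list and the most abundant and smallest-p gene of each marker list, the last printed only beside a member's values. Exon lengths come from GENCODE M21 (99.4% of tested genes) and sequences from RefSeq GRCm38.p6, both of another build than the authors' GRCm39. For 10 members exons overlap other genes in that annotation. The result of 1 gene of the surrounding lists is not reported here.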

Additional observations from a re-analysis of the deposited data

Results flagged for a closer look

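Within each group of 5 mice, the highest or lowest mouse was set against the gap to its neighbour (Dixon's 95% critical value of 0.71 for 5 samples, on log2 levels), for 33 members in both groups. Of these 66 sets, 3 held a mouse far from the others, 4.55%, and chance gives about 1 in 20. *Sec61b* in TDCA 4 stood at 1034 normalized counts, against 705 to 762 in the other TDCA mice. Without TDCA 4 its log2 fold change was −0.41 in limma. *Asns* in water 4 stood at 161 normalized counts, against 236 to 255 in the other water mice, and without water 4 its log2 fold change was −0.35. *Eif2ak3* in TDCA 5 stood at 955 normalized counts, against 1252 to 1355 in the other TDCA mice, and without TDCA 5 its log2 fold change was 0.027.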

How the results depend on the processing

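In limma, 0 of 17507 genes and 0 of 33 members passed as reported, where 1919 genes and 2 members stood at an unadjusted p under 0.05. The adjusted calls were also 0 under each alternative run in limma (pseudocount, filter, normalization, moderation, weights, block, covariate and libraries left out) and at a threshold of 0.10. Members at an unadjusted p under 0.05 numbered 0 with either covariate, with either block, without TDCA 5 and without both water 1 and TDCA 5. Of all genes, 3.87% stood there with the smooth muscle covariate and 4.83% with the pan-epithelial covariate. With the block on the numbers 1 to 5 it was 9.04%, and with that on the title numbers 6.84%. It was 6.53% without TDCA 5 and 5.30% without both water 1 and TDCA 5. Members numbered 4 without water 2 (14.6% of all genes), water 4 (11.4%) or TDCA 3 (12.3%) and without the 3 libraries with *Car1* (11.1%). The edgeR quasi-likelihood test and limma-voom called 0 genes (1755 and 1918 unadjusted), and DESeq2 called 25 genes (2214 unadjusted) and 0 members. The number of members below 0 was 28 as reported, 24 to 29 with single libraries left out, 7 with the smooth muscle covariate and 17 when water 1 and TDCA 5 were both left out. The members' median was −0.19 to −0.065 with single libraries left out, and 0.057 with the smooth muscle covariate. Quantile normalization gave a median of −0.058. Over 27 alternatives, 72 of 887 values of single members changed sign, and 9 of 33 members never did. The 14 other named genes never changed sign either. They were picked for a small p in the same fit, so their steady signs cannot be set against those of the members. No member passed under any alternative. The following log2 fold changes changed sign. With the smooth muscle covariate they were *Hspa5* 0.14, *Hsp90b1* 0.19, *Hyou1* 0.0069, *Hspa13* 0.029, *Dnajb11* 0.10, *Dnajc3* 0.10, *Manf* 0.084, *Creld2* 0.16, *Calr* 0.0065, *Canx* 0.062, *Pdia3* 0.057, *Pdia4* 0.043, *Ern1* 0.068, *Eif2ak3* 0.076, *Atf6* 0.056, *Mbtps1* 0.027, *Xbp1* 0.035, *Atf4* 0.040, *Ddit3* 0.091, *Trib3* 0.21 and *Edem1* 0.046. With the pan-epithelial covariate they were *Dnajb11* 0.016, *Eif2ak3* 0.19, *Atf6* 0.047, *Atf4* 0.0047, *Ddit3* 0.0085, *Trib3* 0.18 and *Herpud1* 0.0091. Without both water 1 and TDCA 5 they were *Hspa5* 0.037, *Hsp90b1* 0.057, *Dnajb11* 0.042, *Dnajc3* 0.038, *Manf* 0.031, *Creld2* 0.042, *Pdia3* 0.0054, *Xbp1* 0.018, *Atf4* 0.030, *Trib3* 0.26 and *Herpud1* 0.11. With quantile normalization they were *Hsp90b1* 0.013, *Mbtps1* 0.063, *Xbp1* 0.018, *Atf4* 0.016 and *Herpud1* 0.057. Without the 3 libraries with *Car1*, chosen after seeing the data, they were *Dnajb9* −0.17, *Ern1* 0.060, *Eif2ak3* 0.016 and *Mbtps1* 0.0064. Single libraries left out gave sign changes in 8 members, with ranges of *Hsp90b1* −0.22 to 0.028, *Dnajb9* −0.12 to 0.19, *Herpud1* −0.21 to 0.10, *Ern1* −0.16 to 0.042, *Eif2ak3* −0.20 to 0.065, *Mbtps1* −0.058 to 0.027, *Trib3* −0.22 to 0.17 and *Atf4* −0.10 to 0.021. The cause of these shifts was not tested.

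The replicate numbers of the labels do not say what they share. Same-numbered mice correlated at −0.15 to 0.17 in their deviations across genes by the numbers 1 to 5, and 1 of 10 libraries correlated best with its own number. With these numbers as a replicate block 0 genes were called, 28 members were below 0 and 0 members stood at an unadjusted p under 0.05 (9.04% of all genes). The titles carry other numbers, of which 3, 4 and 7 occur in both groups (correlations −0.14 to 0.27). A block on them over those 6 libraries called 0 genes, with 23 members below 0, and changed the sign of *Xbp1* 0.070, *Atf4* 0.12, *Trib3* 0.26, *Herpud1* 0.17 and *Syvn1* 0.053. Depth limits most the scarce members *Chac1* and *Derl3*, which a filter of 50 normalized counts removes.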

Other observations

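Of the 129 tested genes of the surrounding machinery, 3 had ranges without overlap between the groups, 1 with TDCA above and 2 with TDCA below, and 2 of the 3 are described here. *Dnajc1*, an ER J-domain protein, stood at 844 to 1122 normalized counts in TDCA against 647 to 844 in water mice, and the 2 groups were separated there by the gap between 843.7 and 844.1. *Dad1*, a subunit of the oligosaccharyltransferase, stood at 304 to 369 normalized counts in TDCA against 391 to 489 in water mice. Over all genes tested, 1.4% had ranges without overlap.

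Of the 107 surrounding genes with a promoter entry, *Ero1b*, an oxidase that recharges disulfide isomerases, was the 1 with an ERSE match. It averaged 316 ± 83.0 normalized counts with water and 324 ± 52.3 with TDCA (SD, n = 5 per group), with a log2 fold change of 0.060 (SE 0.18). Of the 9 members with an ERSE match, 8 had log2 fold changes between −0.26 (*Pdia6*) and −0.092 (*Dnajc3*), and *Derl3* had 0.89. Among all 33 members, 28 were below 0. None of the 9 passed in limma.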
